A study of Homo sapiens with 6 samples.

Results

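LIN28A, LIN28B, HMGA2, IGF2BP1, IGF2BP2 and IGF2BP3 are 6 oncofetal genes of the LIN28 and let-7 axis, active in embryonic tissue and in some tumours and low in most adult tissue. They were chosen by gene name, and every probe set (a group of probes summarised into 1 value) annotated to one of them was taken, which gave 7 of the 32319 probe sets of the array. The series compared cultures of SNU-398, an established human hepatocellular carcinoma line, carrying an shRNA (a short hairpin RNA that lowers its target transcript) against SALL4 with cultures carrying a scrambled shRNA. SALL4 is a C2H2 zinc finger protein that regulates transcription in early embryos and in fetal liver, and it is silent in adult hepatocytes. Total RNA of 3 samples per group was hybridized, 1 array per sample; the labels call the samples of a group biological replicates, and both groups share the parental line and the serum-containing medium. The labels give neither the number of SALL4 hairpins nor the time after their delivery, and off-target effects of a hairpin and effects of lower SALL4 cannot be told apart in this design.

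LIN28A and LIN28B are paralogous RNA-binding proteins that hold back the maturation of let-7 microRNAs, by binding let-7 precursors and, for LIN28A, by recruiting a uridylating enzyme that marks the precursor for decay. Mature let-7 lowers target mRNAs that pair with its seed, and HMGA2, the IGF2BP genes and LIN28B itself are known let-7 targets, so the axis holds a double-negative loop. HMGA2 is a chromatin architectural protein with AT-hooks and does not belong to the RNA-binding proteins. IGF2BP1, IGF2BP2 and IGF2BP3 bind mRNAs, among them that of IGF2, and steady or localise them, and they are also known as readers of N6-methyladenosine (m6A).

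The microRNAs through which these genes are linked share 1 seed. RefSeq lists 9 distinct mature 5p sequences for the 12 let-7 and miR-98 genes, shown here 5′ to 3′ with bases 2 to 8, the seed, in capitals, because the members are grouped by that seed. Among all 2370 mature sequences of the table, 11 carry it.
hsa-let-7a-5p: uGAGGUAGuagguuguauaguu
hsa-let-7b-5p: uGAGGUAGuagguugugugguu
hsa-let-7c-5p: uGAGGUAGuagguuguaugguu
hsa-let-7d-5p: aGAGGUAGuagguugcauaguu
hsa-let-7e-5p: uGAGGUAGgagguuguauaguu
hsa-let-7f-5p: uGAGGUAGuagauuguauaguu
hsa-let-7g-5p: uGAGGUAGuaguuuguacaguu
hsa-let-7i-5p: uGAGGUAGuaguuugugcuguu
hsa-miR-98-5p: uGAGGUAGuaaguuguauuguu

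LIN28 proteins contact let-7 precursors through a zinc knuckle that prefers the bases GGAG. The motif GGAG, searched in the RNA strand as written, was present in 9 of the 12 let-7 family hairpins, against 677 of all 1560 hairpins of the RefSeq table (43.4%). The hairpins of let-7a-3, let-7b and miR-98 held none in these letters. The 4 hairpins below are shown because 3 of them have probe sets that varied among these arrays and let-7b is one without the motif; capitals mark GGAG, and in let-7e 1 of the 3 matches overlaps the mature 5p sequence. A match is a description of the letters and not of binding. The positions are on GRCh38.p14: chr12:62603686-62603769 on the plus strand for let-7i, chr19:51692786-51692864 on the plus strand for let-7e, chr3:52268278-52268361 on the minus strand for let-7g and chr22:46113686-46113768 on the plus strand for let-7b.
let-7i hairpin: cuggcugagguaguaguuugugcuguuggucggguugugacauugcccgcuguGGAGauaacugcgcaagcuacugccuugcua
let-7e hairpin: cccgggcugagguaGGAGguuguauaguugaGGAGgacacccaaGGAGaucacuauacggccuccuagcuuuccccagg
let-7g hairpin: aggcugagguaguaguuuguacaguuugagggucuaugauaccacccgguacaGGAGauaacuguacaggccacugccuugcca
let-7b hairpin: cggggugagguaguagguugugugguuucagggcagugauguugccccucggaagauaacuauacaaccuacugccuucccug

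Values are the deposited linear intensities, which have a floor of 10, so a probe set at 10 has only an upper bound. Array medians lay between 47.85 and 51.69. The targeted gene, SALL4, had intensities of 121, 119 and 117 in SALL4 shRNA cultures, against 283, 264 and 335 in scrambled cultures. This came from 1 probe set, and the positions of its probes along SALL4 are not known here. Changes are SALL4 shRNA minus scrambled on the log2 scale with a standard error (SE), from limma, a linear model with variances shared between genes. The filtered fit kept the 13711 genes whose group mean reached 5 on the log2 scale, or 32 in intensity, in SALL4 shRNA or scrambled cultures. It called 220 of them (1.6%) at a Benjamini-Hochberg adjusted p under 0.05, 75 higher (0.547%) and 145 lower (1.06%) in SALL4 shRNA cultures, and 16.9% had an unadjusted p under 0.05. In the limma fit without the filter 0 of 18404 genes passed, with 2864 at an unadjusted p under 0.05. The first principal component of the filtered genes, 37.3% of the variance, separated the groups. SALL4 shRNA arrays lay at -31.0 to -14.9 on it and scrambled arrays at 20.3 to 22.1. On the second component, 19.8% of the variance, scrambled replicate 3 (-19.3) and SALL4 shRNA replicate 2 (-23.4) stood apart from the other arrays (1.77 to 16.9). Of the markers of hepatocytes and hepatocellular carcinoma, ALB (12.1 and 11.2) and AFP (13.5 and 14.97, means of SALL4 shRNA and scrambled cultures) were near the floor, while GPC3 (144 and 155) and KRT18 (102 and 99.8) were above it. KRT8, with the lowest p of this list, had means of 56.4 in SALL4 shRNA cultures and 36.7 in scrambled cultures. Its log2 difference was 0.64 ± 0.29 (SE, limma adjusted p 0.292). Of the 6 list genes in the filtered fit, KRT8 alone had a positive log2 estimate and 5 had negative ones. Groups did not overlap in 1 of the 6, KRT8 (16.7%), beside 22.4% of all genes in that fit.

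None of the 6 genes passed the test, and in none of their 7 probe sets did the groups separate. LIN28B and the 3 IGF2BP genes were tested in the filtered fit, which called 1.6% of its genes, and the HMGA2 and ELAC2 probe set in the fit of all probe sets, which called 0.0492%. LIN28A was tested in the fit without a filter, which called 0 genes, so its missing call says little. The fit of all probe sets did not call SALL4 itself (limma adjusted p 0.0535). The missing call of the HMGA2 and ELAC2 probe set therefore says little too. Groups that did not overlap were found in 22.4% of the genes of the filtered fit and in 21.2% of the 20316 probe sets of the corresponding fit of all probe sets. LIN28B had the largest positive estimate, 1.32-fold, and the 3 IGF2BP genes lay between 0.899-fold and 1.098-fold of the scrambled cultures. In cultures measured in bulk, fewer cells with a transcript and less transcript per cell cannot be told apart.

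**Figure D1:**
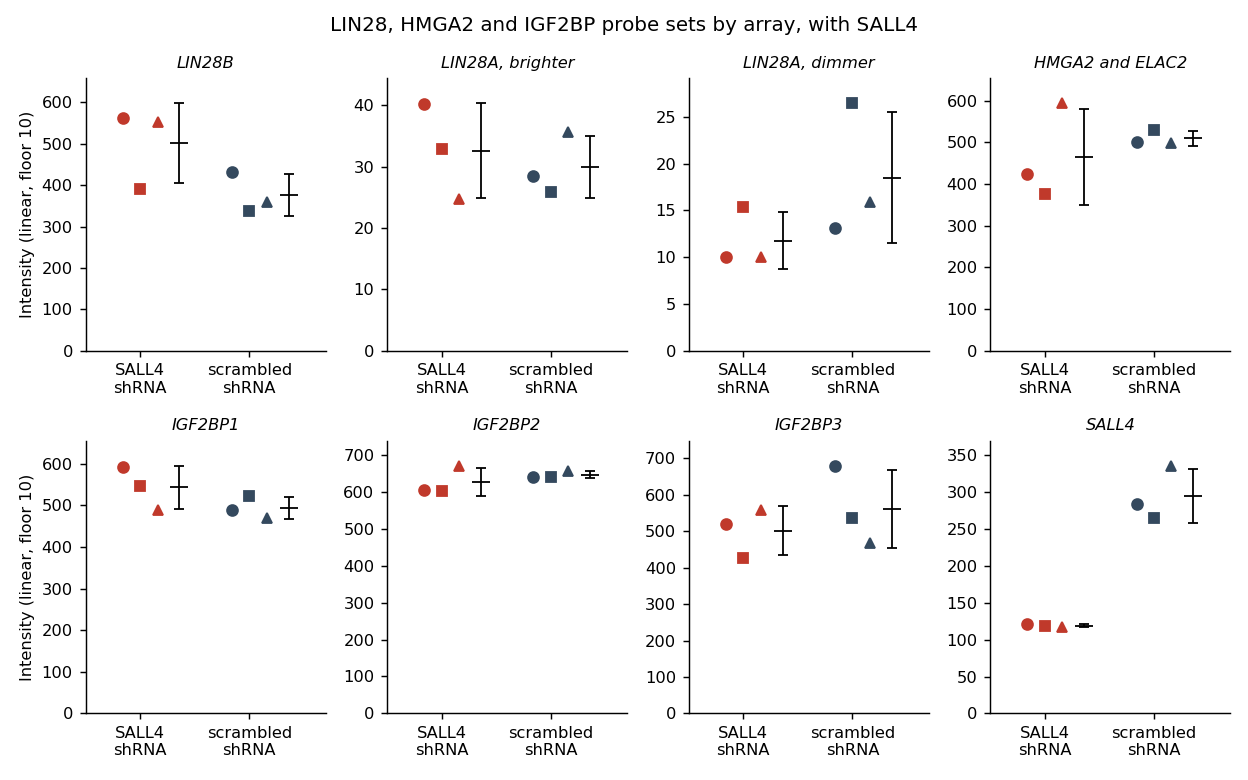
Deposited intensity (linear axis from 0) of the 7 member probe sets and of SALL4 on each array, SALL4 shRNA left and scrambled right; circles, squares and triangles are replicates 1, 2 and 3, and bars give the mean and SD of 3 arrays. The groups overlap in all 7 member probe sets and separate for SALL4 (117 to 121 against 264 to 335).

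LIN28B, the paralog that acts as a let-7 inhibitor in many tumours, was well above the floor on all arrays. Its intensity was 563, 390 and 552 in SALL4 shRNA cultures, against 433, 337 and 359 in scrambled cultures. Replicates 1 and 3 of the SALL4 shRNA cultures lay above all scrambled arrays, and replicate 2 lay between scrambled replicates 1 and 3. The means were 501 ± 96.4 in SALL4 shRNA cultures and 376 ± 50.3 in scrambled cultures (SD, n = 3 each). In limma LIN28B differed by 0.40 ± 0.21 on the log2 scale (SE; adjusted p 0.353), and the 95% interval ran from 0.967-fold to 1.81-fold. Among the genes of the filtered fit 23.1% had a larger absolute change. The exact two-sided permutation p was 0.2, where 0.1 is the smallest that 3 against 3 arrays can give. Without SALL4 shRNA replicate 2 the change was 0.58 (adjusted p 0.216).

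LIN28A, the paralog of embryonic stem cells, was dim by both of its probe sets, which carry the same accessions. The brighter one, 7899167, had intensities of 40.2, 32.9 and 24.7 in SALL4 shRNA cultures, against 28.4, 25.8 and 35.6 in scrambled cultures. The groups overlapped throughout, with the highest and the lowest of the 6 values both in the SALL4 shRNA cultures. Its mean log2 intensity was 4.999 in SALL4 shRNA cultures and 4.89 in scrambled cultures, so it fell just short of the filter in both groups. In the fit of all genes without a filter its change was 0.11 ± 0.22 (SE; adjusted p 0.889), and it was -0.06 without SALL4 shRNA replicate 1. The dimmer one, 8065011, had intensities of 10.0, 15.3 and 10.0 in SALL4 shRNA cultures, against 13.1, 26.5 and 15.9 in scrambled cultures. With 2 SALL4 shRNA arrays at the floor its change has only a bound, and its estimate of -0.62 in the fit of all probe sets (adjusted p 0.589) has the other sign from the brighter probe set.

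HMGA2 was read by 1 probe set, 7956867, which the platform annotation gives to both HMGA2 and ELAC2, a tRNA 3′ processing endonuclease gene. Of its 20 accessions, 3 matched RefSeq transcripts of HMGA2, 0 matched ELAC2 and 17 were not matched, and ELAC2 has another probe set of its own. The shared probe set is therefore given by its ID, and its values may not be those of HMGA2 alone. Its intensity was 424, 376 and 594 in SALL4 shRNA cultures, against 500, 530 and 497 in scrambled cultures. SALL4 shRNA replicates 1 and 2 lay below all scrambled arrays and replicate 3 above them, and the SD was 114 in SALL4 shRNA cultures and 18.4 in scrambled cultures. In the filtered fit of all probe sets the change was -0.16 ± 0.21 (SE; adjusted p 0.767), with an interval from 0.642-fold to 1.25-fold. The probe set of ELAC2 alone had means of 208 ± 45.4 in SALL4 shRNA cultures and 251 ± 12.7 in scrambled cultures (SD, n = 3 each).

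IGF2BP1, also called IMP1, had intensities of 593, 547 and 489 in SALL4 shRNA cultures, against 489, 523 and 469 in scrambled cultures. SALL4 shRNA replicates 1 and 2 were above all scrambled arrays, and SALL4 shRNA replicate 3 and scrambled replicate 1 were level. The log2 change was 0.14 ± 0.18 (SE; adjusted p 0.757), with an interval from 0.837-fold to 1.44-fold. IGF2BP2, the member of the family that stays expressed in adult tissues, had intensities of 606, 602 and 670 in SALL4 shRNA cultures, against 641, 640 and 658 in scrambled cultures. Its scrambled arrays lay inside the range of the SALL4 shRNA arrays. With an SD of 38.5 in SALL4 shRNA cultures and 9.95 in scrambled cultures, it had the smallest SD in either group among the 4 members in the filtered fit. Its change was -0.05 ± 0.17 (SE; adjusted p 0.927), with an interval from 0.743-fold to 1.26-fold, and 87.9% of the genes had a larger absolute change. IGF2BP3, a fetal and tumour form, had intensities of 520, 426 and 558 in SALL4 shRNA cultures, against 680, 535 and 468 in scrambled cultures. Its change was -0.15 ± 0.21 (SE; adjusted p 0.758), with an interval from 0.659-fold to 1.23-fold.

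The intervals of the 4 members in the filtered fit and of the HMGA2 and ELAC2 probe set all reach across 1-fold, and their lower ends, from 0.642-fold to 0.967-fold, lie above the 0.534-fold that is the upper end for SALL4. The intervals do not show that the members were unchanged, since a rise of LIN28B by up to 1.81-fold or a fall of IGF2BP3 to 0.659-fold lies within them. SALL4 shRNA replicate 2 was the lowest of the 3 SALL4 shRNA arrays in 4 of the 6 member probe sets that were above the floor on all arrays, namely LIN28B, HMGA2 and ELAC2, IGF2BP2 and IGF2BP3. It is also the array with the lowest median intensity (47.85). The share of all probe sets with replicate 2 lowest is not given here, and a link to the median was not tested.

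**Figure D2:**
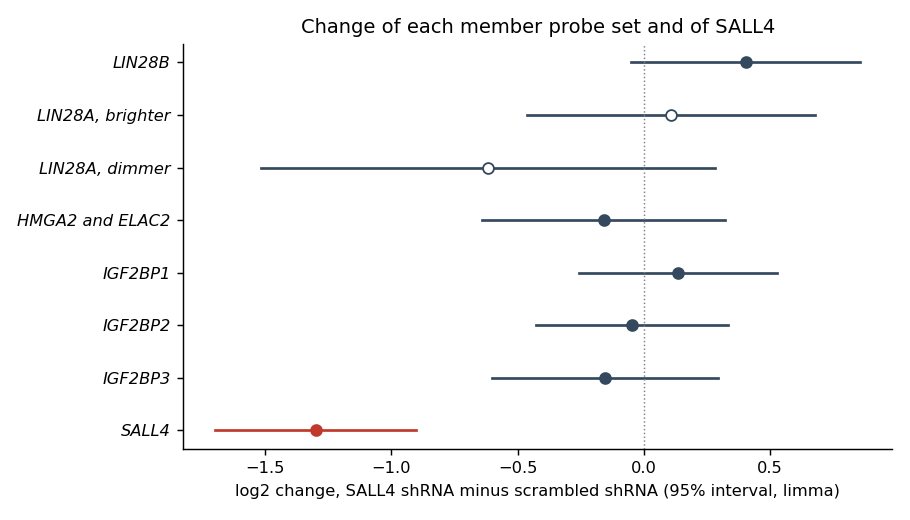
log2 change, SALL4 shRNA minus scrambled (horizontal axis), of each member probe set and of SALL4 with the 95% interval of limma; filled points come from the filtered fits and open points from fits without a filter. All 7 member intervals cross 0, and the SALL4 interval lies at or below 0.534-fold.

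Differences between members were tested as log2 ratios within each array, in 5 pairs. LIN28B and the HMGA2 and ELAC2 probe set differed most, by 0.56 in log2 change, and their ratio was higher in each SALL4 shRNA array than in any scrambled array. The exact permutation p was 0.1, the smallest possible, and 0.5 after adjustment over the 5 pairs. LIN28B and LIN28A differed by 0.30 (exact p 0.5). IGF2BP1 differed from IGF2BP2 by 0.18 and from IGF2BP3 by 0.29 (exact p 0.3 each), and IGF2BP2 from IGF2BP3 by 0.11 (exact p 0.6), with overlapping groups in all 3.

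The genes with the most similar profiles over the 6 arrays were found by the root mean square difference of log2 values centred on each gene's mean. For LIN28B these were AVP, NUB1 and NPTN, at 0.05, 0.05 and 0.06, against a median of 0.37 over all genes. For IGF2BP1 they were CYP2D6, ILF2 and KRTAP5-11 (each 0.04), and for IGF2BP2 SRSF9, SPATA6 and CAST (0.02, 0.03 and 0.03). For IGF2BP3 they were HIBADH, IFNL1 and MED24 (0.05, 0.05 and 0.06). These are the closest of 13711 genes over only 6 arrays, and a profile that varies little is close to many others.

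The let-7 genes themselves, which the LIN28 proteins act on, were covered by 13 probe sets, of which 2 carry several symbols. Whether these probe sets read the mature microRNA or its longer precursor was not tested. MIRLET7F1 and MIR98 were at the floor on all 6 arrays, and MIRLET7C on 5. MIRLET7I had intensities of 88.9, 88.9 and 79.2 in SALL4 shRNA cultures, against 71.9, 56.1 and 62.1 in scrambled cultures. The groups did not overlap, and the log2 change was 0.44 ± 0.18 (SE; limma adjusted p 0.253, unadjusted p 0.0346). MIRLET7A2 had intensities of 10.2, 10.0 and 10.0 in SALL4 shRNA cultures, against 15.8, 13.5 and 12.0 in scrambled cultures, so its groups did not overlap either, close to the floor (adjusted p 0.188 without a filter). MIRLET7A1 was the third of 13 with separate groups, at 23.9, 22.2 and 22.9 in SALL4 shRNA cultures, against 20.2, 19.9 and 21.8 in scrambled cultures. In the filtered fit of all probe sets, groups did not overlap in 21.2% of 20316 probe sets. MIRLET7A1 and MIRLET7A2 were too dim for that filter.

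**Figure D3:**
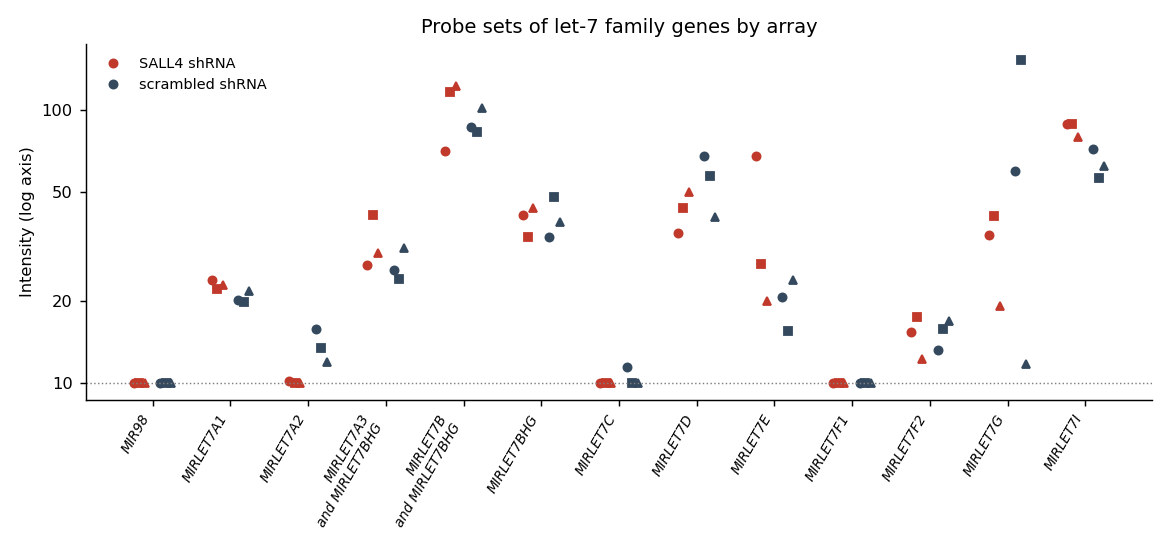
Intensity (log axis) of the 13 probe sets of let-7 family genes on each array, SALL4 shRNA left of scrambled within each gene; circles, squares and triangles are replicates 1, 2 and 3 and the dotted line is the floor of 10. MIRLET7I separates (79.2 to 88.9 against 56.1 to 71.9) and MIRLET7G spreads widely within the scrambled group (11.8 to 152).

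MIRLET7E and MIRLET7G varied widely within groups. MIRLET7E had intensities of 67.6, 27.3 and 19.96 in SALL4 shRNA cultures, against 20.7, 15.5 and 23.9 in scrambled cultures, with 1 SALL4 shRNA array far above the rest. MIRLET7G had 34.8, 41.0 and 19.1 in SALL4 shRNA cultures, against 59.7, 152 and 11.8 in scrambled cultures, which overlap fully. MIRLET7D was at 43.0 ± 7.34 in SALL4 shRNA cultures and 55.2 ± 13.8 in scrambled cultures (SD, n = 3 each), a log2 difference of -0.34 ± 0.23 (SE). The probe set shared by MIRLET7B and its host gene MIRLET7BHG was at 103 ± 28.2 in SALL4 shRNA cultures and 90.1 ± 9.67 in scrambled cultures. Of the 5 let-7 genes in the filtered fit 0 passed.

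Among 19 genes of let-7 processing and decay, 4 had an unadjusted p under 0.05 in limma, beside 16.9% of all genes in the filtered fit. Of the 19 genes 0 passed, and 9 had a positive and 10 a negative estimate. Their median log2 change was -0.02, beside 0.02 over all genes of the fit. The uridylating enzymes TUT4 and TUT7, which act with LIN28A on let-7 precursors, were at -0.02 ± 0.19 and 0.07 ± 0.21 (SE), and DIS3L2, the exonuclease that degrades uridylated precursors, at 0.28 ± 0.22. AGO2, the Argonaute that cleaves targets, had intensities of 316, 433 and 305 in SALL4 shRNA cultures, against 638, 555 and 674 in scrambled cultures, a log2 difference of -0.84 ± 0.20 with an adjusted p of 0.0599. Its groups did not overlap, as in 5 of the 19 genes (26.3%), beside 22.4% of all genes in the filtered fit. PRKRA, a partner of Dicer, had 168, 134 and 180 in SALL4 shRNA cultures, against 259, 308 and 233 in scrambled cultures (-0.73 ± 0.20, adjusted p 0.0819). AGO4 was at 0.47 ± 0.17 (adjusted p 0.193), with 182 ± 6.38 in SALL4 shRNA cultures and 131 ± 5.20 in scrambled cultures (SD, n = 3 each).

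Among 29 known let-7 target genes outside the 6 members, CCND2 fell and 28 did not pass. This is 3.45% called, beside 1.6% of all genes in the filtered fit. Over the 6 pathway lists together, 1 of 84 distinct genes was called. CCND2, a D-type cyclin that drives entry into S phase, had intensities of 880, 894 and 555 in SALL4 shRNA cultures, against 1815, 1565 and 2153 in scrambled cultures. Every SALL4 shRNA array lay below every scrambled array, and CCND2 fell by 1.27 ± 0.23 on the log2 scale (SE). The adjusted p in limma was 0.0241 with the filter and 0.132 when all 18404 genes were fitted. The adjusted p was 0.0620 without SALL4 shRNA replicate 3 and 0.0725, 0.0590 and 0.0763 without scrambled replicate 1, 2 or 3. Of 7 fibroblast and stellate markers, none of them at the floor on all arrays, DCN fell and 6 did not pass, with 3 positive and 4 negative estimates. This is 14.3% called, beside 1.6% of all genes in the filtered fit. Groups did not overlap in 3 of the 7 (42.9%), beside 22.4% of all genes. DCN, a matrix proteoglycan, had means of 83.4 ± 21.1 in SALL4 shRNA cultures and 195 ± 17.2 in scrambled cultures (SD, n = 3 each; limma adjusted p 0.0218). Its adjusted p was 0.118 without the filter, 0.0562 with the replicate block, 0.0522 and 0.0619 without SALL4 shRNA replicate 1 or 2, and 0.0517, 0.0801 and 0.0516 without scrambled replicate 1, 2 or 3. COL3A1 was at -0.54 ± 0.21 (SE), and LUM and DES also had negative estimates. COL1A2, COL1A1 and PDGFRB were at 0.50 ± 0.20, 0.37 ± 0.20 and 0.32 ± 0.23. The mean log2 intensity of the 7 was 6.89 to 6.98 in SALL4 shRNA arrays and 7.03 to 7.14 in scrambled arrays, and without DCN, a choice made after seeing the data, it was 6.96 to 7.09 in SALL4 shRNA arrays and 6.91 to 7.08 in scrambled arrays. The part of these markers in the CCND2 result was not tested. The related CCND1 was at -0.06 ± 0.19 and HMGA1, the paralog of HMGA2, at -0.04 ± 0.19.

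The other targets lay on both sides of 0. The 29 had 14 positive and 15 negative estimates and a median of -0.02. Of the 29, 3 had an unadjusted p under 0.05 in limma, beside 16.9% of all genes in the filtered fit. DICER1, the nuclease that makes mature microRNAs and itself a let-7 target, was at 1328 ± 52.2 in SALL4 shRNA cultures and 1773 ± 165 in scrambled cultures (SD, n = 3 each), a log2 difference of -0.41 ± 0.18 (SE; adjusted p 0.268). CDC25A, a phosphatase that activates CDK2, was at -0.45 ± 0.19 (adjusted p 0.265). MYC was at -0.49 ± 0.23 and its relative MYCN at -0.37 ± 0.20, while ARID3B was at 0.39 ± 0.22 and TRIM71, a stem cell ubiquitin ligase and let-7 target, at 0.07 ± 0.24.

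**Figure D4:**
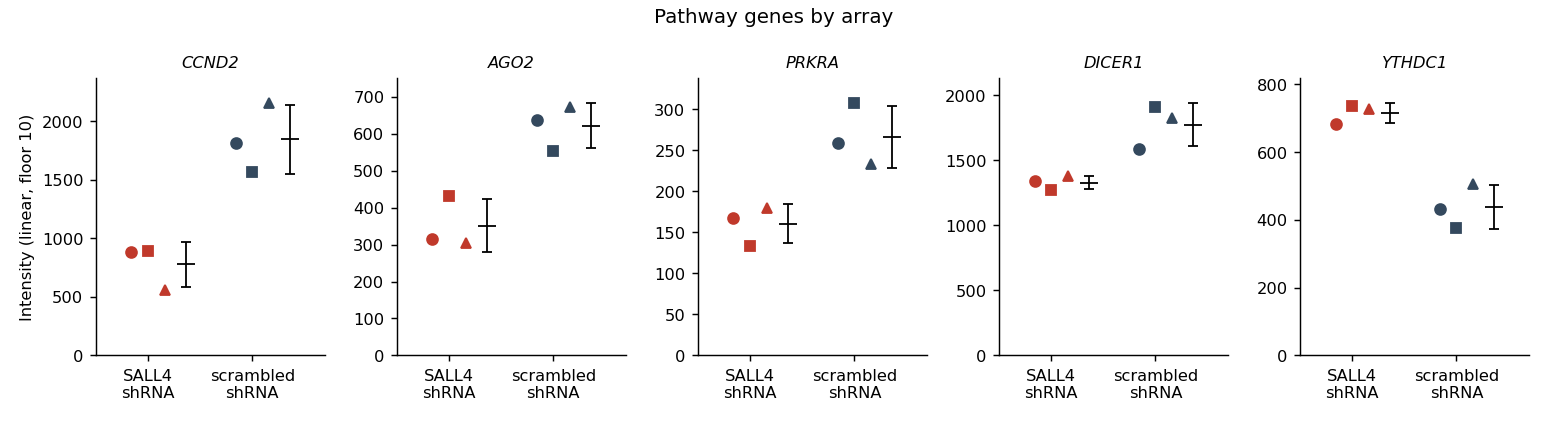
Deposited intensity (linear axis from 0) of CCND2, AGO2, PRKRA, DICER1 and YTHDC1 on each array, SALL4 shRNA left and scrambled right; circles, squares and triangles are replicates 1, 2 and 3, and bars give the mean and SD of 3 arrays. The groups separate in all 5 genes, but these were picked from the genes with the lowest p of their lists. Their separation therefore says nothing about the lists. Among all genes in the filtered fit the groups separate in 22.4%, and among the 5 CCND2 passed the test.

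Around the IGF2BP proteins 0 genes passed either. Of 19 partners and m6A genes, 5 had an unadjusted p under 0.05 in limma, beside 16.9% of all genes in the filtered fit. Groups did not overlap in 7 of the 19 (36.8%), beside 22.4% of all genes, and the median of the list was -0.01. YTHDC1, the nuclear m6A reader, had intensities of 683, 737 and 727 in SALL4 shRNA cultures, against 431, 375 and 504 in scrambled cultures, a log2 difference of 0.72 ± 0.19 (SE; adjusted p 0.0751). YTHDF3, a cytoplasmic reader, was at 0.55 ± 0.19 (adjusted p 0.177), RBM15B, an adaptor of the methyltransferase, at -0.47 ± 0.20, and the methyltransferase METTL3 at -0.45 ± 0.19. HNRNPU, SYNCRIP, YBX1 and DHX9, which join IGF2BP1 on the MYC coding region, were between -0.19 and 0.22.

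Of 9 genes of the insulin-like growth factor axis 0 passed and 0 had an unadjusted p under 0.05, with a median of 0.02. The receptor gene IGF1R was at 289 ± 64.4 in SALL4 shRNA cultures and 284 ± 37.4 in scrambled cultures (SD, n = 3 each), and IGFBP1, IGFBP4 and IRS1 were at 0.31 ± 0.25, -0.22 ± 0.22 and -0.22 ± 0.24 (SE). IGF2 and H19, the classical IGF2BP clients, share their probe sets with other genes and are given no value. Of 10 other client mRNAs 0 passed and 0 had an unadjusted p under 0.05, with 3 positive and 7 negative estimates and a median of -0.05. ACTB, whose mRNA IGF2BP1 localises, was at 3092 ± 383 in SALL4 shRNA cultures and 3215 ± 106 in scrambled cultures (SD, n = 3 each), BTRC at 0.25 ± 0.19 (SE) and CTNNB1 at 0.16 ± 0.21.

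**Figure D5:**
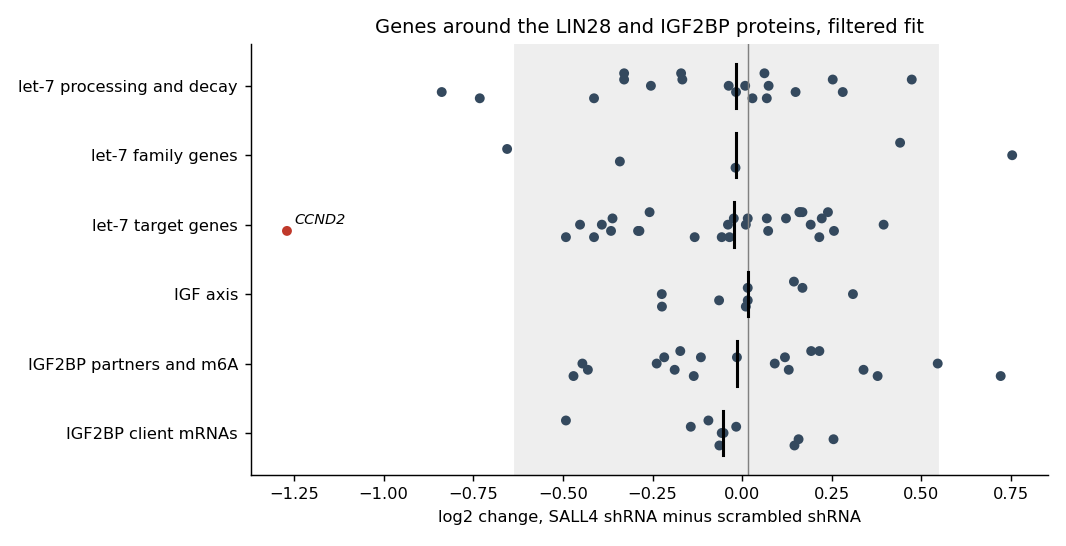
log2 change, SALL4 shRNA minus scrambled (horizontal axis), of each gene of 6 lists around the LIN28 and IGF2BP proteins in the filtered fit; points are genes, red marks a gene that passed, black bars are list medians, and the grey band spans the 5th to the 95th percentile of all genes (-0.63 to 0.55). The list medians lie between -0.05 and 0.02, beside 0.02 for all genes, and CCND2 (-1.27) passed.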

How the data were processed

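The deposited table holds linear intensities of 32319 probe sets for 6 arrays, 3 per group. Per the submitters' processing notes the authors used RMA (background correction, normalization and probe summary; version not given); how they returned to a linear scale with a floor of 10 is not stated. Between 15.5% and 16.9% of values per array are at the floor. Log2 was taken here. Probe sets were named by the platform annotation and updated through Entrez identifiers; for a gene with several single-symbol probe sets the brightest was used (18404 genes). limma 3.58.1 in R 4.3.3 (lmFit, eBayes, two-sided, Benjamini-Hochberg) was run on all arrays, tested on simulated data. Single values used exact permutation tests. Members, lists and the filter were chosen with earlier results of these data known. Named genes are the members, SALL4, list genes that passed, up to 3 more per list with the lowest unadjusted p, and a few chosen after their values were seen (such as TUT4, TUT7, DIS3L2, CCND1, HMGA1, METTL3, ACTB and IGF1R). The number of arrays limits precision. RefSeq sequences are from GRCh38.p14.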

Additional observations from a re-analysis of the deposited data

How the results depend on the processing

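None of the members passed under any of the alternatives run. LIN28A, whose alternatives start from the fit without a filter, reversed to -0.058 without SALL4 shRNA replicate 1 and to -0.26 with the mean of its 2 probe sets, and was 0.006 to 0.29 under the others. The other members kept their direction under the alternatives run: the log2 change lay between 0.31 and 0.58 for LIN28B, between 0.07 and 0.21 for IGF2BP1, between -0.10 and -0.002 for IGF2BP2, between -0.28 and -0.01 for IGF2BP3 and between -0.35 and -0.02 for the HMGA2 and ELAC2 probe set. The difference between IGF2BP2 and IGF2BP3 reversed to -0.046 without scrambled replicate 1 and was 0.24 without scrambled replicate 3. The count of genes called, 220, was 0 without a filter, 40 when genes at the floor on all arrays were left out, 500 with trend and robust settings, 10 over all probe sets, 445 with a pseudocount of 16, 41 with the replicate block, 39 to 103 without 1 array and 15 without scrambled replicate 3 and SALL4 shRNA replicate 2. Same-numbered arrays of the groups did not deviate together (correlations of -0.083 to 0.0029), so the numbers were not taken as pairs. The count over the pathway lists, 1, was 3 with trend and robust settings and with the pseudocount (AGO2, CCND2 and YTHDC1), and 0 without a filter, without the genes at the floor, over all probe sets, with the replicate block and without both arrays that stood apart; without 1 array it was 0 to 1. Some of these alternatives used fewer arrays or another set of genes, and the cause of the changed counts was not tested. SALL4 had an adjusted p of 0.0946 without a filter, 0.0535 over all probe sets and 0.0737 without both arrays. Dim probe sets such as those of LIN28A are limited by the floor.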
